A study of Mus musculus with 6 samples.

Results

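The genes of the proteasome, the protease that degrades proteins tagged with ubiquitin, were examined in the hippocampus of mice labelled Rsk2-KO and littermates labelled WT. The members were all genes whose only annotated symbol begins with Psma, Psmb, Psmc, Psmd, Psme, Psmf or Psmg, each read from its probe set with the highest mean log2 signal over the 6 arrays. The rule gave 48 of the 12393 genes with a single symbol on the array. Of these, 18 encode subunits of the 20S core (Psma, Psmb), 20 belong to the 19S cap by symbol (Psmc, Psmd), 3 encode activators (Psme), 1 an inhibitor (Psmf1) and 4 assembly chaperones (Psmg). The remaining 2 share the prefix only: Psmc3ip acts in meiotic recombination, and Psme3ip1 encodes a protein that binds the activator Psme3. They are not components of the particle, so the counts below are over the other 46 genes. No measured difference enters this rule, but it was set with earlier results of these data known.

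Both groups were male C57BL/6J mice aged 2 months, labelled Rsk2-KO or wild type (WT), with 3 one-colour Affymetrix arrays in each group. Each array held RNA pooled from 2 hippocampi, and the labels do not say whether pools shared animals, so a p-value covers only how far these pools varied. Rsk2 is a protein kinase that ERK activates, encoded by the X-linked gene Rps6ka3. The labels do not describe the allele, and the study asked which molecular pathways differ in expression between the genotypes. In bulk tissue, fewer cells of a type and less RNA per cell cannot be told apart.

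The 20S core is a barrel of stacked rings. The alpha rings (Psma) form the gate through which proteins enter, and the beta rings (Psmb) enclose the cutting sites. The 19S cap binds ubiquitinated proteins, removes the ubiquitin and feeds the unfolded chain into the core; its base holds a ring of ATPases (Psmc) and its lid is built of non-ATPase subunits (Psmd). In neurons the proteasome is known to take part in the turnover of synaptic proteins, including during plasticity.

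The arrays had been scaled to the same trimmed mean, and the readings below are MAS5 signals on a linear scale. Rps6ka3 did not check the labels: it read 99.2, 98.4 and 87.0 in pools labelled Rsk2-KO, against 74.2, 59.7 and 89.2 in pools labelled WT, and where the probe set lies relative to the disruption was not analysed here. Neuronal and hippocampal markers passed the filter on dim signals, in 8 of 8 neuronal genes on the array (such as Snap25 and Syt1) and 8 of 8 hippocampal genes. The latter included Neurod6, Wfs1 and Prox1, of which Prox1 was dim at 25 to 48. Markers of neighbouring tissue also passed, in 4 of 6 thalamus and striatum genes and 2 of 5 choroid plexus genes. The choroid plexus gene Ttr varied from 504 on Rsk2-KO 2 to 2122 on WT 3. The Rsk2-KO 3 and WT 3 arrays stood apart from the remaining 4. Both had the lowest signals of the 6 arrays at 14.7% of the 12559 kept probe sets and the highest at 17.8%. Among the 67 kept probe sets of proteasome components these shares were 23.9% (16 probe sets) and 13.4% (9 probe sets), so differences are also given within the arrays numbered 1 and 2 and between those numbered 3. At 3 arrays a group, 0.1 is the smallest two-sided p that exact permutation of the labels could reach, so differences are tested in the fit over all genes.

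No proteasome gene passed the test between Rsk2-KO and WT. Of the 46 components, 43 had a mean signal above the filter at 19.2, and 0 of these 43 passed an adjusted p of 0.05 in limma over 7867 genes (0.0% of all genes passed, lowest adjusted p = 0.617). With arrays weighted by their scatter about the fit, 0.648% of all genes passed and again 0 components. These weights were lowest for Rsk2-KO 3 (0.42) and WT 3 (0.41) and ran from 0.90 to 2.53 for the others. At an unadjusted p of 0.05, 3 components were lower in pools labelled Rsk2-KO (Psmd9, Psmd7 and Psmd11) and 2 higher (Psme4 and Psmc6); these are 6.98% and 4.65% of the 43, against 3.44% and 4.04% of all genes. The log2 difference, Rsk2-KO minus WT, was below 0 in 29 of 43 components (67.4%), against 56.4% of all genes. Its median was −0.088 for the components and −0.038 for all genes, and the range over components ran from −0.48 for Psmd9 to 0.44 for Psme4. The median standard error of a component was 0.15. On simulated data with known changes, the fit recovered 8.35% of 1.5-fold changes. The largest component difference, that of Psmd9, was 1.40-fold (WT over Rsk2-KO). Not passing therefore does not show that a component was unchanged. Of the 18 components with more than 1 kept probe set, 11 had the same sign in all of them and 7 did not: Psmb1, Psmb4, Psmc2, Psmc4, Psmd11, Psme3 and Psmg2. The groups did not overlap in 8 components lower on the arrays labelled Rsk2-KO (18.6%, against 8.76% of all genes), namely Psmd9, Psmd7, Psmd8, Psmd3, Psmb10, Psmb2, Psmb7 and Psmb1. They also did not overlap in 2 components higher there (4.65%, against 5.47%), Psme4 and Psmc6.

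**Figure D1:**
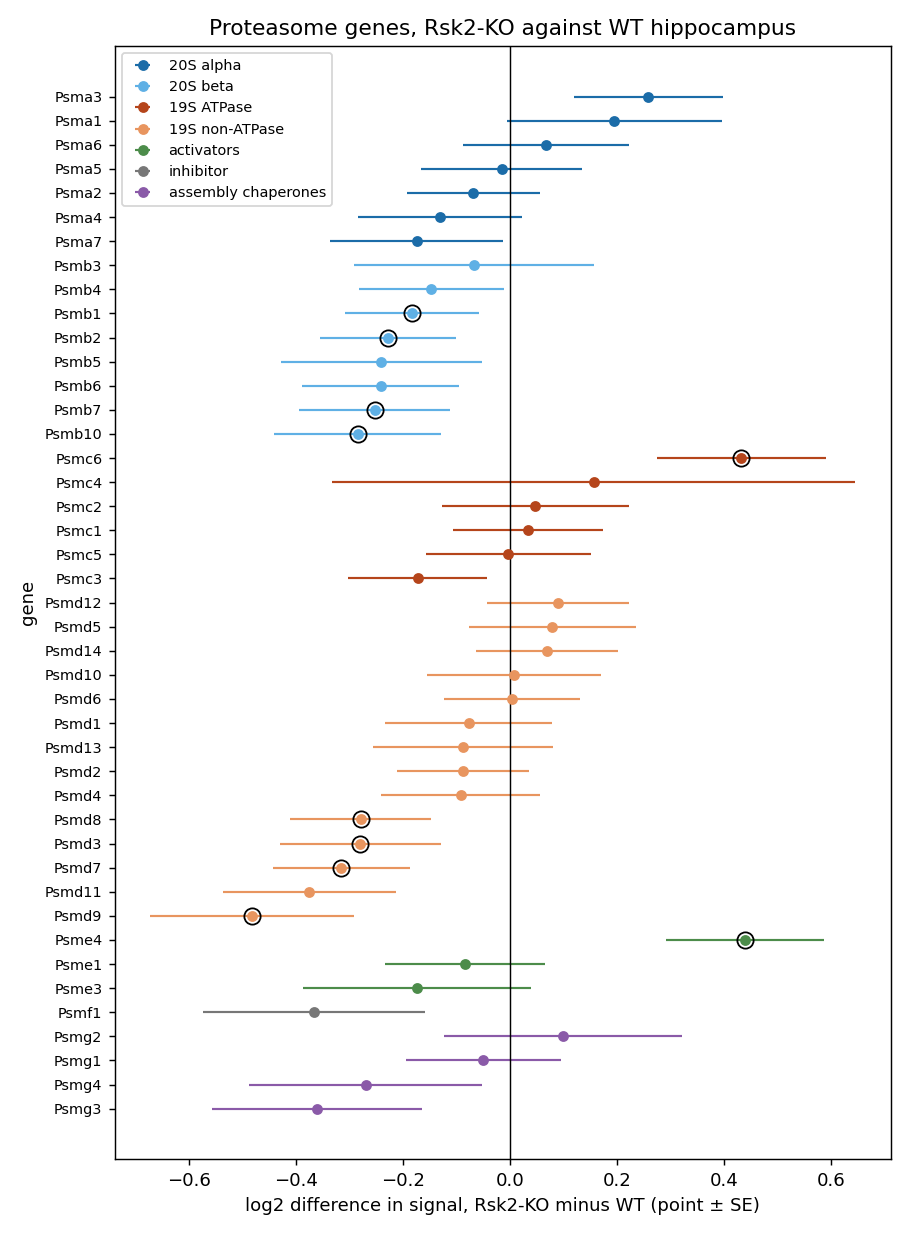
Each point is the log2 difference in signal, Rsk2-KO minus WT, of 1 of the 43 proteasome genes above the filter, with bars for the standard error from limma and colours for the class of subunit. Black rings mark the 10 genes whose groups did not overlap; all 8 beta subunit genes lie below 0, while the ATPase genes of the cap lie on both sides and Psmc6 and Psme4 lie farthest above 0.

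The beta subunit genes of the core lay on one side. All 8 that were tested were below 0, where 56.4% of all genes were. Their median log2 difference was −0.24, against −0.038 for all genes, and their range ran from −0.29 to −0.068. They remained below 0 in all 8 under quantile normalization, median centring and offsets of 16 and 64, with medians from −0.19 to −0.23. Median centring moved the median of all genes only from −0.038 to −0.029, and the offsets shrink differences, so these could hardly change a sign. The count was 6 of 8 when all kept probe sets of a gene were averaged and 7 of 8 without Rsk2-KO 2 or without WT 3. It was 5 of 8 between the arrays numbered 3. With a trend on gene span removed, described below, it was 7 of 8 with a median of −0.14. The 3 subunits that carry the cutting sites of the standard proteasome differed by −0.24 to −0.25 over all arrays, but single arrays moved Psmb5 and Psmb6. Psmb7, the trypsin-like subunit, read 966, 1016 and 1263 in pools labelled Rsk2-KO, against 1270, 1286 and 1285 in pools labelled WT. The groups did not overlap, but Rsk2-KO 3 came close to the WT arrays. With means of 1082 ± 159 and 1280 ± 8.92 (SD over 3 arrays), the log2 difference was −0.25 (SE 0.14, limma adjusted p = 0.618).

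Psmb6, the caspase-like subunit, read 337, 371 and 444 in pools labelled Rsk2-KO, against 496, 443 and 418 in pools labelled WT. Here the groups overlapped, as Rsk2-KO 3 was above WT 2 and WT 3 (log2 difference −0.24, SE 0.15). Psmb5, the chymotrypsin-like subunit and main target of proteasome inhibitor drugs, had 450, 543 and 480 against 614, 728 and 433. WT 3 was the lowest of all 6 arrays for this gene (log2 difference −0.24, SE 0.19). The difference of Psmb5 was −0.075 without WT 2 and −0.45 without WT 3, and that of Psmb6 −0.15 without Rsk2-KO 1. Between the arrays numbered 3 the 3 catalytic genes differed by −0.026 for Psmb7, 0.087 for Psmb6 and 0.15 for Psmb5, against −0.37, −0.41 and −0.44 within the arrays numbered 1 and 2. Over all 8 beta genes the median came to −0.31 within the arrays numbered 1 and 2, and to −0.041 between those numbered 3.

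The other beta subunits, which close the rings without cutting, were Psmb1 to Psmb4. Psmb2 had 257, 241 and 272 in pools labelled Rsk2-KO, against 306, 291 and 305 in pools labelled WT, so each Rsk2-KO array was below each WT array (log2 difference −0.23, SE 0.13; −0.16 between the arrays numbered 3). Psmb1 also separated the groups, with 444, 453 and 449 against 517, 548 and 467 (−0.18, SE 0.13), but a second, dimmer Psmb1 probe set had the opposite sign (0.41, SE 0.31). Psmb3 and Psmb4 differed by −0.068 and −0.15 and overlapped, and a second Psmb3 probe set differed by −0.24 (SE 0.19).

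A second probe set of Psmb4 shows how strongly the arrays numbered 3 could depart from the rest. This set, of the x_at type whose probes can match other transcripts, gave 606, 564 and 50.1 in pools labelled Rsk2-KO, against 438, 589 and 22.8 in pools labelled WT. On average it was 16.1-fold dimmer on the arrays numbered 3 than on the other 4. The brighter Psmb4 probe set showed no such drop, with signals from 859 to 1096 over all arrays.

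**Figure D2:**
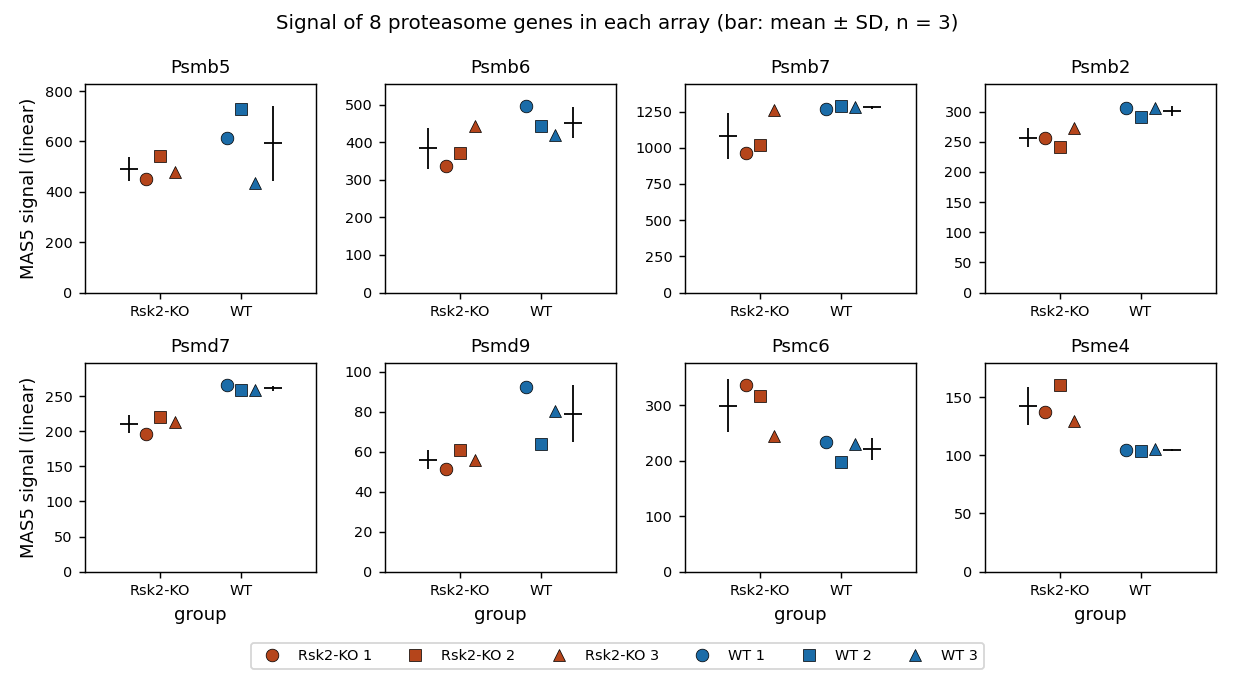
MAS5 signal on a linear axis from 0 for 8 proteasome genes, with 1 symbol per array (circle, square and triangle for the arrays numbered 1, 2 and 3; orange for Rsk2-KO, blue for WT) and bars for mean ± SD (n = 3). The groups separate for Psmb7, Psmb2, Psmd7, Psmd9, Psmc6 and Psme4 and overlap for Psmb5 and Psmb6, where the triangles of both groups lie close together.

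The immunoproteasome replaces the 3 catalytic subunits with Psmb8, Psmb9 and Psmb10 and is known from immune cells and inflamed tissue. Psmb10 was the 1 of these above the filter, with 115, 125 and 123 in pools labelled Rsk2-KO, against 173, 145 and 128 in pools labelled WT. The groups did not overlap, WT 3 lying closest to the Rsk2-KO arrays (log2 difference −0.29, SE 0.16, limma adjusted p = 0.617; −0.057 between the arrays numbered 3; −0.17 without WT 1). Psmb8 (13.0, 25.6 and 14.8 against 11.3, 24.4 and 13.7) and Psmb9 (9.22, 18.4 and 3.19 against 9.004, 15.5 and 16.6) were dim in both groups and were not tested. The microglial markers, from cells that can carry immunoproteasome subunits, were below 0 in 8 of 11 members, where 56.4% of all genes were. The other 3 were above 0, with Cx3cr1 at 0.65 (SE 0.42). The summed signal of these markers, weighted towards bright members such as Csf1r, ran from 1887 to 2009 in pools labelled Rsk2-KO. In pools labelled WT it ran from 2076 to 2165. The part of microglia in the Psmb10 values was not tested. Of the genes that serve antigen presentation with this form of the core, 3 of the 4 tested were below 0 and 0 passed, with Tapbp, which loads peptides onto class I molecules, at −0.23 (SE 0.18) and the peptide transporter gene Tap2 at 0.068 (SE 0.31).

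The alpha subunit genes did not share a side. Of the 7 tested, 4 were below 0 and 3 above, with a median of −0.016. Psma3 had 987, 822 and 935 in pools labelled Rsk2-KO, against 751, 694 and 852 in pools labelled WT. Rsk2-KO 2 lay below WT 3, and the log2 difference was 0.26 (SE 0.14, limma adjusted p = 0.617). Psma1 had 405, 404 and 249 against 285, 350 and 272: the arrays Rsk2-KO 1 and Rsk2-KO 2 were the brightest and Rsk2-KO 3 the dimmest of the 6 (0.19, SE 0.20; −0.13 between the arrays numbered 3). With 1 array left out it ran from 0.076 (without Rsk2-KO 1) to 0.43 (without Rsk2-KO 3), and it was also over 1.5 times smaller or larger without Rsk2-KO 2 (0.077), WT 2 (0.30) or WT 3 (0.12).

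Psma7 lay lowest among the alpha genes at −0.18 (SE 0.16), with 276, 302 and 295 against 342, 392 and 263, and its other kept probe set differed by −0.19. Without WT 2 the difference of Psma7 was −0.047, and without WT 3 it was −0.33. Psma5 depended on the probe set: the brightest differed by −0.016, while the other had 214, 224 and 216 in pools labelled Rsk2-KO, against 341, 259 and 268 in pools labelled WT, with no overlap (−0.40, SE 0.15, limma adjusted p = 0.661 over all kept probe sets). Psma2, Psma4 and Psma6 differed by −0.069, −0.13 and 0.067, and the 2 other Psma6 probe sets by 0.095 and 0.74. Psma8, the alpha subunit of the testis proteasome, had a signal of at most 9.71 on any array and was not tested.

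In the 19S cap the ATPase genes were spread on both sides of 0, with 2 of 6 below and a median of 0.040. Psmc6 (Rpt4) had the second largest positive difference of the components. The readings were 337, 317 and 245 in pools labelled Rsk2-KO, against 234, 198 and 231 in pools labelled WT. Every Rsk2-KO array was above every WT array, with means of 300 ± 48.4 and 221 ± 20.1 (SD, n = 3 each), but Rsk2-KO 3 was only slightly above WT 1. The log2 difference was 0.43 (SE 0.16, limma adjusted p = 0.617), 0.60 within the arrays numbered 1 and 2 and 0.088 between those numbered 3. A second kept probe set of Psmc6 had 196, 214 and 122 against 97.0, 132 and 102, a log2 difference of 0.66 (SE 0.23) with overlap of the groups. Without both arrays numbered 3, with 2 arrays in each group, Psmc6 was the 1 component that passed (limma adjusted p = 0.0452, where 3.61% of all genes passed); over the alternatives its adjusted p ran from 0.0452 to 0.994.

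The other ATPase genes differed less or less clearly. Psmc3 (Rpt5) had 509, 490 and 569 against 632, 582 and 554 and differed by −0.17 (SE 0.13). Psmc1, Psmc2 and Psmc5 lay within 0.05 of 0 at their brightest probe sets, but a second Psmc2 probe set had 442, 462 and 549 against 714, 583 and 563, with no overlap (−0.35, SE 0.15). Psmc4 had the largest standard error of all components, reading 589, 561 and 136 against 326, 461 and 215. Its difference was 0.16 (SE 0.49) over all arrays, 0.57 within the arrays numbered 1 and 2 and −0.67 between those numbered 3, and its other probe set differed by −0.23 (SE 0.14).

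Among the 14 non-ATPase genes of the cap, 9 were below 0, with a median of −0.088, and the largest differences were all below 0. Psmd9, a chaperone that helps assemble the ATPase ring and is not part of the finished cap, had the lowest difference of all components. The readings were 51.4, 60.7 and 56.0 in pools labelled Rsk2-KO, against 92.5, 64 and 80.5 in pools labelled WT. The groups did not overlap, with WT 2 closest to the Rsk2-KO arrays (log2 difference −0.48, SE 0.19, limma adjusted p = 0.617). A second, dimmer probe set of Psmd9 had 17.3, 21.4 and 21.2 against 26.9, 28.9 and 29.2, also without overlap (−0.51, SE 0.24). Both probe sets differed by a like amount within the arrays numbered 1 and 2 (−0.46 and −0.54) and between those numbered 3 (−0.52 and −0.46).

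Of the 8 lid genes, 5 were below 0 with a median of −0.18, and the groups did not overlap in 3, all lower (37.5%, against 8.76% of all genes). Without _x_at and _s_at probe sets, which changes the probe set of Psmd11, 4 of 8 were below 0 and the median was −0.042. Psmd7 (Rpn8), the partner of the deubiquitinase subunit Psmd14, had 196, 220 and 214 in pools labelled Rsk2-KO, against 266, 258 and 259 in pools labelled WT. The WT arrays lay close together, above every Rsk2-KO array (log2 difference −0.32, SE 0.13, limma adjusted p = 0.617), and the difference between the arrays numbered 3 was −0.28. Psmd8 (Rpn12) had 311, 349 and 361 against 397, 449 and 393 (−0.28, SE 0.13), and Psmd3 (Rpn3) 167, 176 and 159 against 184, 240 and 189 (−0.28, SE 0.15); both were lower on every Rsk2-KO array, and between the arrays numbered 3 by −0.12 and −0.25. Psmd3 differed by −0.16 without WT 2.

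Psmd11 (Rpn6), which clamps the cap to the core, read 677, 638 and 693 against 989, 681 and 970 at the brightest probe set (−0.38, SE 0.16). WT 2 lay among the Rsk2-KO arrays. Of its 3 other kept probe sets 2 had the opposite sign (0.12 and 0.036) and 1 the same (−0.22), so the direction for this gene depended on the probe set. Psmd14, which removes ubiquitin chains, and Psmd12 differed by 0.068 (SE 0.13) and 0.089 (SE 0.13), with 653, 597 and 642 against 671, 541 and 599 for Psmd14 and 251, 249 and 297 against 245, 254 and 249 for Psmd12. Psmd12 differed by 0.0062 without Rsk2-KO 3, and Psmd14 by −0.0080 if WT 2 was left out, 0.15 if WT 1 was, 0.043 if Rsk2-KO 1 was and 0.11 if Rsk2-KO 2 was. Psmd6 and Psmd13 differed by 0.0037 and −0.088, and their second probe sets by 0.36 (SE 0.24) and −0.23 (SE 0.16), the latter without overlap. The base subunits Psmd1, Psmd2 and Psmd4, of which Psmd4 is a ubiquitin receptor, differed by −0.078, −0.089 and −0.093, and the base chaperones Psmd5 and Psmd10 by 0.079 and 0.0066.

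The core and the cap as wholes were then set side by side. The median log2 difference was −0.15 over the 15 core genes tested, 12 of which were below 0, and −0.041 over the 20 cap genes, 11 of which were below 0. To follow this array by array, each gene's log2 signal was expressed as its deviation from its own mean over the 6 arrays and averaged over a class. The core had mean deviations of −0.071, −0.067 and −0.014 in pools labelled Rsk2-KO, against 0.11, 0.071 and −0.024 in pools labelled WT, and WT 3 lay among the Rsk2-KO arrays. The cap had −0.032, −0.026 and −0.043 against 0.046, 0.053 and 0.0023, and its groups did not overlap.

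The core minus the cap was −0.039, −0.041 and 0.029 in pools labelled Rsk2-KO, against 0.060, 0.018 and −0.026 in pools labelled WT. The arrays numbered 3 had the opposite order to the others. The group means were −0.017 ± 0.040 and 0.017 ± 0.043 (SD, n = 3 each), so the difference between core and cap moved by −0.034 between genotypes, less than the spread between arrays of 1 genotype. With the 3 base chaperones left out of the cap it was −0.046, and with all kept probe sets of a gene averaged 0.00049. The classes within core and cap lay farther apart than core and cap did, but they hold fewer genes. The beta genes averaged −0.21 and the alpha genes 0.018, and the non-ATPase genes −0.13 and the ATPase genes 0.082. The SDs over Rsk2-KO and over WT arrays were 0.12 and 0.047 for beta and 0.066 and 0.090 for alpha genes. They were 0.076 and 0.035 for non-ATPase and 0.20 and 0.090 for ATPase genes. The alpha and ATPase averages were thus smaller than either of their SDs. The side of the ATPase genes depended on the setting: with all probe sets averaged 4 of 6 were below 0 (median −0.021), without WT 1 also 4 of 6 (−0.041), and 3 of 6 once Rsk2-KO 1 was left out (−0.0056). Between the arrays numbered 3 the ATPase median of 0.020 lay below the non-ATPase median of 0.036. These are descriptions of classes and were not given a p.

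**Figure D3:**
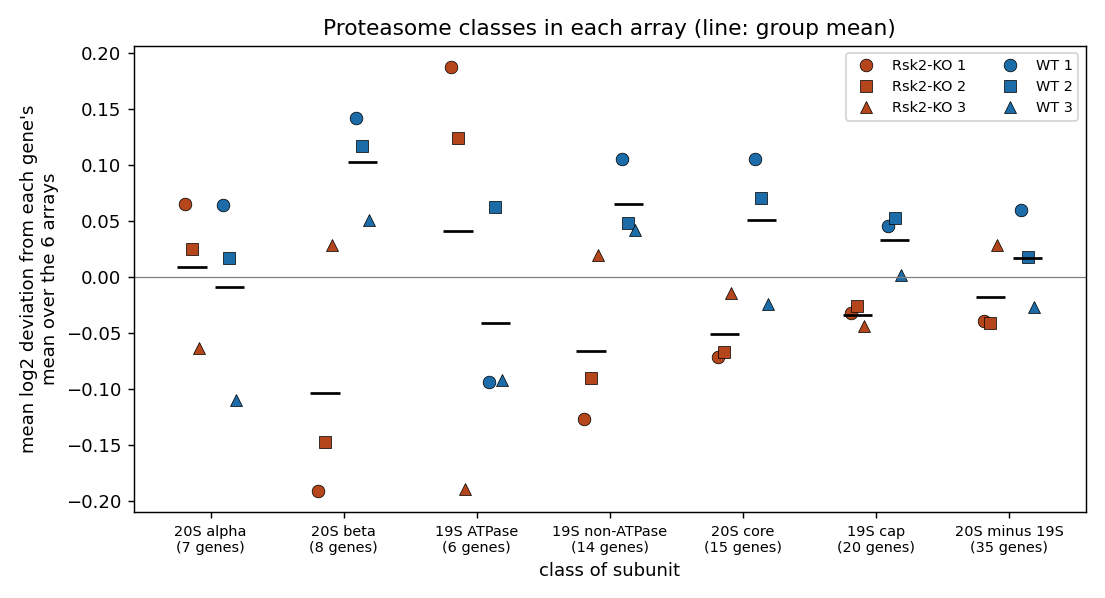
Each symbol is 1 array, placed at the mean over a class of the log2 deviation of each gene from its own mean over the 6 arrays, with black lines for group means (orange Rsk2-KO, blue WT; circle, square and triangle for the arrays numbered 1, 2 and 3). Beta and non-ATPase genes are lower on every Rsk2-KO array than on every WT array. Rsk2-KO 3 lies just below WT 3, at 0.028 against 0.051 for beta and 0.019 against 0.042 for non-ATPase genes. The groups overlap for the ATPase genes and for the core minus the cap.

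The differences were smaller between the arrays numbered 3. Within the arrays numbered 1 and 2, 31 of 43 components were below 0 (72.1%, against 56.4% of all genes). Their median was −0.17, against −0.056 for all genes. Between the arrays numbered 3, 21 of 43 were below 0 (48.8%, against 51.6% of all genes). The median there was 0.0098, against −0.0097 for all genes. The interaction of genotype with array set, which has 1 array per label on one side, was also fitted in limma and called 0 of the 43 components and 0.0% of all genes (lowest adjusted p among the components 0.295, for Psmc4). Psmd9, Psmd7 and Psmd3 had differences of similar size in both sets, while Psme4 had 0.51 and 0.29.

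**Figure D4:**
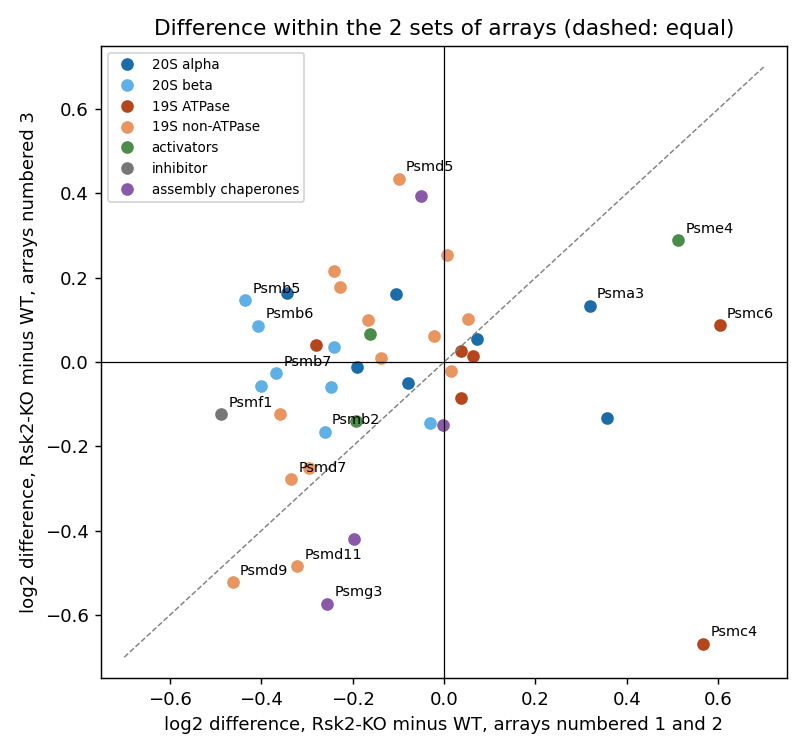
Each point is 1 proteasome gene, with its log2 difference, Rsk2-KO minus WT, within the arrays numbered 1 and 2 on the horizontal axis and between the arrays numbered 3 on the vertical axis; the dashed line marks equal values. Psmd9, Psmd7 and Psmd11 lie near the line below 0 and Psme4 above 0, whereas the catalytic genes Psmb5, Psmb6 and Psmb7 lie well below 0 on the horizontal axis but near or above 0 on the vertical one, and Psmc4 changes sign.

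The components are shorter than most genes tested, and genes of their length lay slightly lower than all genes. The 43 components had a median genomic span of 12.4 kb, the beta genes 6.97 kb, and all genes tested 23.7 kb. The 2382 genes with a span between 7.29 and 22.3 kb, the middle of the components' range, had a median log2 difference of −0.074. The 21 components in that range had −0.051. Of the 2382 genes 63.8% were below 0, against 52.4% of the 21 components. Their medians were −0.11 and −0.049 within the arrays numbered 1 and 2, and −0.011 and −0.020 between those numbered 3. The range holds Psmb3 alone of the beta genes tested, so it says little about that class. Psmb4, Psmb5, Psmb6 and Psmb10 are shorter (2.5 to 3.9 kb) and Psmb1, Psmb2 and Psmb7 longer (22.6 to 55.9 kb). Over all genes, the rank correlation of an array's deviation with span was 0.21, 0.081 and 0.087 on the Rsk2-KO arrays. On the WT arrays it was −0.21, −0.21 and 0.085. It thus differed between the groups on the arrays numbered 1 and 2 and was alike on those numbered 3. A smooth trend of signal on span was then taken out of every array, an option added with earlier results known. The median became −0.040 for the core and 0.0031 for the cap. For the beta genes it was −0.14, and 7 of 8 were below 0.

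The largest positive difference was that of a gene for a protein that opens the core. Psme4, an activator that caps the core without ATP and is known for roles with chromatin, had 137, 160 and 129 in pools labelled Rsk2-KO, against 105, 103 and 106 in pools labelled WT. The WT arrays were almost equal and every Rsk2-KO array was above them. With means of 142 ± 16.2 and 105 ± 1.11 (SD over 3 arrays), the log2 difference was 0.44 (SE 0.15, limma adjusted p = 0.617). Its 2 other kept probe sets had the same sign but smaller differences, 0.25 (SE 0.19) and 0.22 (SE 0.17), the latter again without overlap; between the arrays numbered 3 they differed by −0.12 and 0.0079.

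Psme3, the nuclear activator, had 123, 99.6 and 161 against 137, 116 and 177 (−0.17, SE 0.21), and its other kept probe set differed by 0.055. Its difference was −0.0088 without Rsk2-KO 2, −0.012 without WT 3, −0.31 without WT 2 and −0.35 without Rsk2-KO 3. Psme1, which is induced by interferon, differed by −0.085 (SE 0.15). The probe set for Psme2 is annotated to several genes and was left out. Psmf1, which binds the core and can inhibit it, had 58.2, 71.5 and 98.0 against 86.5, 94.8 and 107, with Rsk2-KO 3 above WT 1 and WT 2 (−0.37, SE 0.21). Its difference was −0.19 without Rsk2-KO 1 and −0.57 without Rsk2-KO 3. The 2 other kept probe sets of Psmf1 differed by −0.083 and −0.072. Psme3ip1, of the prefix only, had 138, 145 and 168 against 196, 190 and 164 (−0.29, SE 0.15). Psmc3ip, also of the prefix only, read at most 20.4 on any array and was below the filter.

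The assembly chaperones Psmg1 to Psmg4 guide the alpha ring into shape before the beta subunits join. Psmg3 had 79.3, 74.0 and 59.8 in pools labelled Rsk2-KO, against 111, 75.3 and 89.0 in pools labelled WT, and Rsk2-KO 1 lay above WT 2 (−0.36, SE 0.20, limma adjusted p = 0.617; −0.21 without WT 1). Psmg4 and Psmg1 differed by −0.27 (SE 0.22) and −0.051 (SE 0.15). Psmg2 had 115, 90.4 and 89.9 against 90.2, 124 and 68.4 (0.099, SE 0.22), and its other probe set had the opposite sign (−0.13). Its difference turned below 0 without WT 3 (−0.11) or without Rsk2-KO 1 (−0.020), and was 0.32 without WT 2 and 0.16 without Rsk2-KO 2 or Rsk2-KO 3. Pomp, which matures the beta ring together with these chaperones, had 502, 507 and 565 against 574, 505 and 599 (−0.090, SE 0.13).

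Proteasome genes are known to be induced together by the transcription factor Nfe2l1 through antioxidant response elements. Nfe2l1 read 211, 226 and 267 in pools labelled Rsk2-KO, against 277, 244 and 268 in pools labelled WT, with overlap (−0.17, SE 0.14, limma adjusted p = 0.712). The core of this element, TGACNNNGC, was searched on both strands in the 250 bases before the gene start in the RefSeq promoters of GRCm38.p6, which held 38 of the 46 components. It was present in Psmd9, Psmb5, Psmb6, Psmc6 and Psmd12, 5 of the 38 (13.2%), against 13.9% of 6439 genes tested that have a promoter there. The CCAAT box, CCAAT, was present in 13 of the 38 (34.2%), against 40.8%. Both shares were near those of all genes. The 150 bases before the start are shown for Psmd9, the component with the lowest difference, and Psmb5, a catalytic subunit, which both hold the element core, and for Psme4, the component with the highest difference, which holds neither motif in the window. Capitals mark the match to TGACNNNGC, which begins 31 bases before the start in Psmd9 and 47 bases before it in Psmb5; it is a match of letters, not a measured binding site. The windows are chr5:123228040-123228189 (plus strand) for Psmd9, chr14:54617996-54618145 (minus strand) for Psmb5 and chr11:30771625-30771774 (plus strand) for Psme4, none of which overlaps an annotated gene span.
Psmd9: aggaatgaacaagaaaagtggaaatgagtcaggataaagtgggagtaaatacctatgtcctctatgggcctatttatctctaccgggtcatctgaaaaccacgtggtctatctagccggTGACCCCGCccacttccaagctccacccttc
Psmb5: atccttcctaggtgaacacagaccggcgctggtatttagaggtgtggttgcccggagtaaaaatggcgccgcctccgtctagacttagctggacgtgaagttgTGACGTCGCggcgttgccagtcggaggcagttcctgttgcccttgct
Psme4: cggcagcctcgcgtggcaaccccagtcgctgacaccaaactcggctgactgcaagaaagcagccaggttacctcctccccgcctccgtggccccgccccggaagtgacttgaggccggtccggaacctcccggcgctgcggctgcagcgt

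The genes that work next to the proteasome did not pass either. Of 12 proteasome partners tested, 4 were below 0 and 8 above, with a median of 0.047. Uchl5, a deubiquitinase bound to the cap, had 227, 236 and 161 against 165, 182 and 134, with overlap (0.37, SE 0.19). Zfand5, which stimulates the proteasome, had 745, 778 and 790 against 654, 635 and 704 and was higher on every Rsk2-KO array (0.22, SE 0.12). Of 9 genes for ubiquitin shuttles and unfolding, 6 were below 0 with a median of −0.066. Nploc4, a cofactor of the unfoldase Vcp, was lower on every Rsk2-KO array (−0.38, SE 0.17), and the shuttle gene Ubqln2 differed by 0.18 (SE 0.17) with overlap.

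Of the ubiquitin genes and E1 enzymes, Uba3 was the 1 tested. It encodes part of the E1 enzyme for Nedd8, a relative of ubiquitin that activates cullin ligases. It had 251, 248 and 254 in pools labelled Rsk2-KO, against 158, 143 and 208 in pools labelled WT, without overlap (0.58, SE 0.16, limma adjusted p = 0.617). Of 21 E2 enzyme genes, 9 were below 0 and 12 above. Ube2v2 had 271, 273 and 323 against 120, 156 and 245 (0.80, SE 0.23), and its paralogue Ube2v1, which like it pairs with Ube2n to build chains of a signalling type, had 411, 453 and 484 against 602, 528 and 530 (−0.30, SE 0.13). Both separated the groups, in opposite directions, and neither passed (limma adjusted p = 0.617 each).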

How the data were processed

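Per the labels, each of the 6 arrays took cRNA from 6 micrograms of total RNA. The deposited unit is linear signal intensity per probe set, made by the authors in MAS5 per the submitters' processing notes; its version is not given in the sources used here. Since MAS5 scales arrays to a common trimmed mean, a difference in total RNA would be removed. Log2 signals were used without further normalization. Of 22690 probe sets, 20380 had 1 gene symbol, 691 had several and 1606 none; only the first, without control probe sets, were named, and 20351 were found in RefSeq (GRCm38.p6), used for symbols and spans. A filter at the 40th percentile of the mean log2 signal kept 12559 for 7867 genes, each read from its brightest probe set. The genotype difference was fitted in limma 3.58.1 under R 4.3.3 with an intensity trend and no covariate, tested on both sides and adjusted by Benjamini-Hochberg over all genes; tables used Python 3.11.15. The fit was tested on simulated data with known changes, in 20 simulations with 200 changed genes of 7867. It recovered 8.35% of 1.5-fold changes and 45.5% of 2-fold changes, with a mean of 2.5 false calls. Most changes of these sizes were therefore missed. Detection calls were not used here, and the number of arrays limits the precision.

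The members, lists and alternatives were chosen with earlier results of these data known. Genes were named by rule: Rps6ka3, the catalytic and immunoproteasome subunits, the smallest p in each direction in each symbol class and the 6 smallest p in each direction; from the pathway lists up to 2 genes with the smallest p. Psma2, Psma4, Psma5, Psma6, Psmb1 to Psmb4, Psmc1, Psmc2, Psmc4, Psmc5, the remaining Psmd and Psmg genes, Psme1, Pomp and Nfe2l1 were added to account for every member and its regulator. Alternatives were median centring, quantile normalization, added offsets of 16 or 64, other filters, no intensity trend, array weights, a replicate block, all probe sets averaged, no _x_at or _s_at probe sets, each array left out, the arrays numbered 3 left out or alone, and the trend on gene span removed.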

Additional observations from a re-analysis of the deposited data

How the results depend on the processing

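Of the 22 named members tested, 13 kept their sign under all 20 alternatives, and for those below no cause was tested. Other filters, no intensity trend and the replicate block left each log2 difference unchanged, so these could not change a sign. For a member with a single kept probe set, averaging probe sets could not either. In limma the count of genes passing was 0 with any 1 array left out, 51 with array weights, 1 with a replicate block and 284 without both arrays numbered 3; the count of components passing was 0 in all of these except 1 without both arrays numbered 3. The labels give no meaning to the array numbers and no batch. Deviations of same-numbered arrays correlated by 0.074, 0.37 and 0.40, and those of differently numbered arrays by −0.39 to 0.20. As the labels do not name pairs, the main fit did not use the numbers. The arrays numbered 3 stood apart together, and whether they shared a batch is not known. With the replicate block 0 components passed. Leaving out 1 array at a time moved the core median from −0.22 to −0.11, the cap median from −0.085 to −0.033, core minus cap from −0.057 to −0.013, the components below 0 from 27 to 32, and those without overlap from 8 to 16 lower and from 2 to 5 higher, the 16 and 5 without Rsk2-KO 3. With 2 arrays against 3, groups separate more often: those 16 and 5 are 37.2% and 11.6% of the components, against 23.2% and 13.3% of all genes. Without WT 2 or WT 3 there were 12 lower components in each case (27.9%, against 14.4% and 17.7% of all genes). Without both arrays numbered 3 the core median, the cap median and core minus cap were −0.24, −0.12 and −0.079, with 19 components lower and 6 higher without overlap, or 44.2% and 14% with 2 arrays against 2, where 32.2% and 25% of all genes separated; between those arrays alone they were −0.011, 0.020 and 0.055. With array weights the core median was −0.21. With all probe sets averaged the cap median was −0.083 and core minus cap 0.00049. With the trend on span removed, chosen with earlier results known, the medians were −0.040 and 0.0031, and 4 components were higher without overlap (9.3%, against 6.65% of all genes); without _x_at and _s_at probe sets it was 1. Signs changed between the arrays numbered 3 for Psma1 (−0.13), Psma7 (0.16), Psmb5 (0.15), Psmb6 (0.087), Psmc3 (0.039) and Psme3ip1 (0.034). Psmd11 was 0.12 without _x_at and _s_at probe sets. Psmd14 ran from −0.0080 to 0.15 and Psmg2 from −0.11 to 0.32 with 1 array left out, and Psmg2 was −0.015 with all probe sets averaged and −0.049 without both arrays numbered 3.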
